A study of Mus musculus with 8 samples.

Results

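The collagen genes of cultured mouse primary myoblasts were described: 44 of the 19938 genes that the array annotation names by a single symbol. Members were the probe sets whose symbol is Col, a number, a, and a number. Where a gene had several probe sets, the one with the highest mean over the 8 arrays was taken, which affected Col6a5 and Col6a6. Expression was measured on Affymetrix MoGene 1.0 ST arrays in 2 labelled groups, WT and Runx1f/f, with 4 arrays each that carry the numbers 1 to 4 as biological replicates. Satellite cells came from the gastrocnemius of C57bl/6 mice aged 2 to 3 weeks that were WT or Runx1f/f, were grown on Matrigel in a proliferation medium, and gave 200 ng of total RNA per array. The labels also call the Runx1f/f cells knockout. They do not name the Cre that would delete the floxed alleles. Matrigel is itself a basement membrane extract, but an array of cellular RNA does not measure the protein it supplies.

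Collagens are trimers of chains that carry long stretches of a repeated triplet with glycine in its first place. Fibrillar collagens form the fibrils of connective tissue, type IV collagen forms the network of basement membranes such as the one around each muscle fibre, and type VI collagen forms beaded filaments that link both. FACIT collagens sit on fibrils or at basement membrane zones, multiplexins lie in basement membrane zones, and several collagens span the plasma membrane. In muscle the bulk of fibrillar collagen comes from connective tissue fibroblasts, whereas satellite cells rest under the fibre's basement membrane and express some of its components.

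Sequences at the starts of members are shown because Col4a1 and Col4a2, which lie head to head, and Col19a1 were high on the same arrays in the values below. They are from RefSeq (GRCm38.p6), where 35 of the 44 members had an entry, in 38 windows of the 250 bases before a start. Capitals mark matches to the motifs searched, on both strands: TGTGGT or TGCGGT for Runx factors, CAGCTG or CAGGTG for the E-box bound by MyoD, and TGANTCA for AP-1, the factor that contains c-Jun. The first line lies at bases -91 to -62 from the Col4a2 start (chr8:11312714-11312743, plus strand), which is inside Col4a1. The second is the stretch of 22 bases that both annotated transcripts share (chr8:11312805-11312826, plus strand), the third is the window before the Col19a1 start, where the match reads on the opposite strand (chr1:24587438-24587687, minus strand), and the fourth lies at bases -101 to -72 from the Col6a1 start (chr10:76726116-76726145, minus strand).
Col4a2, around the Runx match: caccgtcccgggTGCGGTgactctgcgcag
Col4a2 and Col4a1, shared start: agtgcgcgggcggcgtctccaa
Col19a1, before the start: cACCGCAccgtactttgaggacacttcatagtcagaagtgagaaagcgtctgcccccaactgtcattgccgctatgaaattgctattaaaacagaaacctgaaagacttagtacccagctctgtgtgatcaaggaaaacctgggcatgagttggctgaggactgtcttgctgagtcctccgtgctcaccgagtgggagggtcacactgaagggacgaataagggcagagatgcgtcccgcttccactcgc
Col6a1, around the AP-1 match: tgctgatgctgTGACTCActcagctttgag

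A Runx match lay in 6 of the 38 collagen windows (15.8%), against 18.6% of the 32851 windows of all genes. For the E-box the figures were 8 windows (21.1%) against 27.7%, and for AP-1 1 window (2.63%), that of Col6a1, against 6.75%. Matches of different motifs did not overlap in any collagen window (0 overlaps). The window before Col4a1 held none of the 3 motifs, and Col26a1 had no entry. Apart from Col4a2 and Col19a1, Runx matches lay before Col4a4, Col8a1, Col17a1 and a start of Col18a1. These genes are not among the members counted as high below, and their differences there were -0.09, -0.45, 0.07 and 0.18. A match describes letters in a window and is not evidence of binding.

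Levels are log2 intensities after RMA. Levels of different probe sets are not strictly comparable, since each probe set has its own response. Placing a gene above or below the median gene, or giving a range of means, is therefore a rough guide only. Array medians were 4.39 to 4.41. The deposited values have a constraint: for every probe set, the WT mean, that of Runx1f/f 1 with 2, and that of Runx1f/f 3 with 4 coincide to within 7.5e-05. A comparison of the labelled genotypes therefore holds no information: limma called 0 of 44 collagen genes (0% of all genes called), 0 had an unadjusted p under 0.05, and the largest difference was 5e-06, in Col6a3. For the same reason Runx1f/f 2 mirrors Runx1f/f 1 about the gene's mean, and Runx1f/f 3 mirrors Runx1f/f 4, so these arrays are not independent values. The targeted gene Runx1 read 9.15, 9.99, 10.27 and 9.25 on WT arrays 1 to 4, then 9.35, 9.98, 9.89 and 9.44 on Runx1f/f arrays 1 to 4, so it did not separate the labels as they stand on the columns. Its arrays numbered 2 and 3 lay above those numbered 1 and 4, by 0.74 with a gap of 0.45, and which exons its probe set covers was not analysed here. All 9 myoblast markers were above the median gene (4.43), with means from 7.07 in Pax7 to 11.72 in Chrna1.

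Which sample each column holds is in doubt, and the files used here do not settle it. The labels give each sample a source number: 139, 142, 160 and 189 for WT 1 to 4, then 140, 141, 161 and 181 for Runx1f/f 1 to 4. Sorted, these fall into runs of 4, 2 and 2 samples (139 to 142, 160 to 161, and 181 and 189), which are the sizes, in column order, of the sets of columns whose means coincide. A run here is a group made from these numbers alone. The labels used here name no batch and do not say what the numbers mean, and 181 and 189 are not consecutive. By the labels the WT set and that of Runx1f/f 3 with 4 mix samples of different runs. Runx1f/f 1 and 2, numbered 140 and 141, are both of the first run. If the columns stood in the order of the source numbers, each set would be 1 run, the columns labelled WT 2, WT 3, Runx1f/f 2 and Runx1f/f 3 would hold the Runx1f/f samples, and those numbered 1 and 4 would hold the WT samples. Numbers 2 and 3 against 1 and 4 would then be the genotype comparison. The 2 against 1 values given below as within the first run would still each lie within 1 run. For WT columns that would be 139 to 142, and for Runx1f/f columns 160 to 161. Values within the first run that pool both labels would mix these runs. Array names below are the labels as deposited, and no value was assigned to a genotype by column order.

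The arrays numbered 2 and 3 are set below against those numbered 1 and 4, in both labels. By the labels this is not a comparison of the study's design. It was chosen because earlier results of these values showed the arrays parting along it, so the differences are descriptions with no test. Grouped by source number, numbers 1 and 2 of both labels share the first run, while numbers 3 and 4 each have a run of their own. With the columns as labelled, only 2 against 1 can be read within such a run. A gene was counted when its 4 arrays numbered 2 and 3 all lay above, or all below, the 4 numbered 1 and 4, with a gap of at least 0.5 between the nearest arrays on the log2 scale.

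By this count 4 collagen genes were higher in numbers 2 and 3 and 0 were lower: Col4a1 and Col4a2, the chains of the basement membrane network, the FACIT collagen Col19a1, and Col26a1. That is 9.09% of the members, beside 0.943% of all genes higher and 0.196% lower. With no minimum gap 10 members (22.7%) were higher and 1 (2.27%) lower, beside 9.87% and 10.5% of all genes. The median difference over the 44 genes was 0.04, and over all genes -0.01, so most collagen genes did not share in it.

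Col26a1 encodes a short collagen with an EMI domain. It read 5.89, 7.65, 7.89 and 5.94 on WT arrays 1 to 4, then 6.00, 7.69, 7.79 and 5.90 on Runx1f/f arrays 1 to 4. All 4 high arrays were those numbered 2 and 3, at 7.75 ± 0.11 (SD, n = 4) against 5.93 ± 0.05 (SD, n = 4). The difference of 1.82 is 3.54-fold on the linear scale, and the gap between the nearest arrays was 1.65. Within the first run, number 2 exceeded number 1 by 1.76 for WT and 1.69 for Runx1f/f arrays. Among all genes its gap ranked 32nd from the top.

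Col4a1 read 5.99, 7.26, 7.90 and 6.45 on WT arrays 1 to 4, then 6.16, 7.64, 7.61 and 6.19 on Runx1f/f arrays 1 to 4. Col4a2 read 6.17, 7.08, 7.73 and 6.54 on WT arrays 1 to 4, then 6.32, 7.44, 7.61 and 6.15 on Runx1f/f arrays 1 to 4. These genes encode the most widespread chains of type IV collagen, which join in a trimer of both, and their transcripts start on opposite strands within the 22 shared bases shown above. In each of them the lowest array numbered 2 or 3 was WT 2 and the highest numbered 1 or 4 was WT 4. Numbers 2 and 3 averaged 7.60 ± 0.27 against 6.20 ± 0.19 (SD, n = 4 each) for Col4a1, a 2.65-fold difference with a gap of 0.81. For Col4a2 they averaged 7.47 ± 0.28 against 6.29 ± 0.18 (SD, n = 4 each), a 2.26-fold difference with a gap of 0.54. After each array was centred on its median that gap was 0.499, just under the minimum, so 3 members were counted there. Within the first run, number 2 exceeded number 1 by 1.26 for WT and 1.49 for Runx1f/f arrays in Col4a1, and by 0.91 and 1.13 for Col4a2.

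The other type IV chains did not take part. Col4a3 and Col4a4, chains known from the kidney filter, had means of 3.77 and 3.81 over the 8 arrays, and their differences were -0.00 and -0.09. Col4a5 and Col4a6, the pair on the X chromosome, had means of 3.86 and 3.42 and differences of 0.14 and 0.04, and 1342 bases lay between their starts. All 4 were below the median gene, and in all 4 the sets of arrays overlapped.

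Col19a1 encodes a FACIT collagen found at basement membrane zones and known from developing muscle. It read 6.22, 7.39, 7.51 and 6.36 on WT arrays 1 to 4, then 6.28, 7.46, 7.31 and 6.44 on Runx1f/f arrays 1 to 4. The 2 sets of arrays were tight, at 7.42 ± 0.09 and 6.33 ± 0.09 (SD, n = 4 each), which is a 2.13-fold difference with a gap of 0.87. Number 2 exceeded number 1 by 1.17 for WT and 1.18 for Runx1f/f arrays within the first run.

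**Figure D1:**
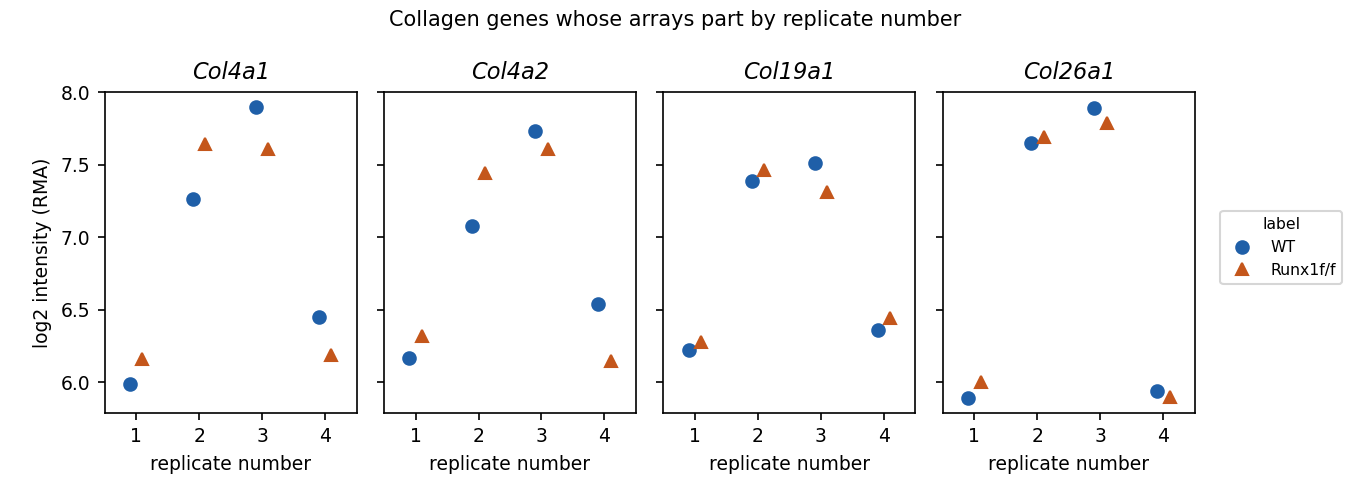
Log2 intensity (vertical axis) of Col4a1, Col4a2, Col19a1 and Col26a1 against replicate number (horizontal axis), with 1 point per array, circles for WT and triangles for Runx1f/f. In each panel the 4 arrays numbered 2 and 3 lie above the 4 numbered 1 and 4, with the widest gap, 1.65, in Col26a1.

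The remaining 8 FACIT genes did not show a gap of this size. Col12a1, a FACIT of tendon and muscle fascia, was the most variable of them and is treated with the fibrillar chains below. The other 7 had means from 3.41 in Col20a1 to 4.42 in Col9a2. They include Col14a1, at 3.73 over the 8 arrays, the only member lower in numbers 2 and 3 without overlap, by 0.09 and with a gap of -0.02. Col22a1, a collagen of the myotendinous junction, had a mean of 3.69 and a difference of 0.04.

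Type VI collagen, a component of the satellite cell niche, is built from the chains of Col6a1, Col6a2 and one further chain such as that of Col6a3. Col6a1 read 4.65, 5.45, 5.64 and 4.92 on WT arrays 1 to 4, then 5.07, 5.26, 5.44 and 4.89 on Runx1f/f arrays 1 to 4. The high arrays were again numbers 2 and 3, by 0.56, but with a gap of 0.19 it was below the minimum. Col6a3 read 4.00, 4.43, 5.19 and 4.14 on WT arrays 1 to 4, then 4.33, 4.54, 4.57 and 4.31 on Runx1f/f arrays 1 to 4, a difference of 0.49 with a gap of 0.09, and WT 3 alone stood above 5. Col6a2 stayed between 3.75 and 3.95 on all arrays, with a difference of 0.03. Col6a4, Col6a5 and Col6a6, the alternatives to Col6a3, differed by -0.01, -0.03 and 0.02, and the second probe sets of Col6a5 and Col6a6 by -0.07 and -0.03.

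The multiplexins differed from each other. Col15a1, of the muscle basement membrane zone, read 3.49, 4.05, 3.91 and 3.44 on WT arrays 1 to 4, then 3.67, 3.77, 3.92 and 3.52 on Runx1f/f arrays 1 to 4. Its sets of arrays did not overlap, with a difference of 0.38 and a gap of 0.10, at a mean of 3.72, below the median gene. Col18a1, whose product is the source of endostatin, had a mean of 8.46 and parted by number in opposite directions in the labels, as described with Col12a1 below. Among the transmembrane collagens, Col25a1, which is required for motor innervation of muscle, read 5.13, 5.22, 5.47 and 4.68 on WT arrays 1 to 4, then 4.98, 5.27, 5.29 and 4.97 on Runx1f/f arrays 1 to 4, with a difference of 0.37 and a gap of 0.10. Col13a1, Col17a1 and Col23a1 differed by -0.14, 0.07 and 0.24 with overlapping arrays. Col13a1 is known from the neuromuscular synapse.

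**Figure D2:**
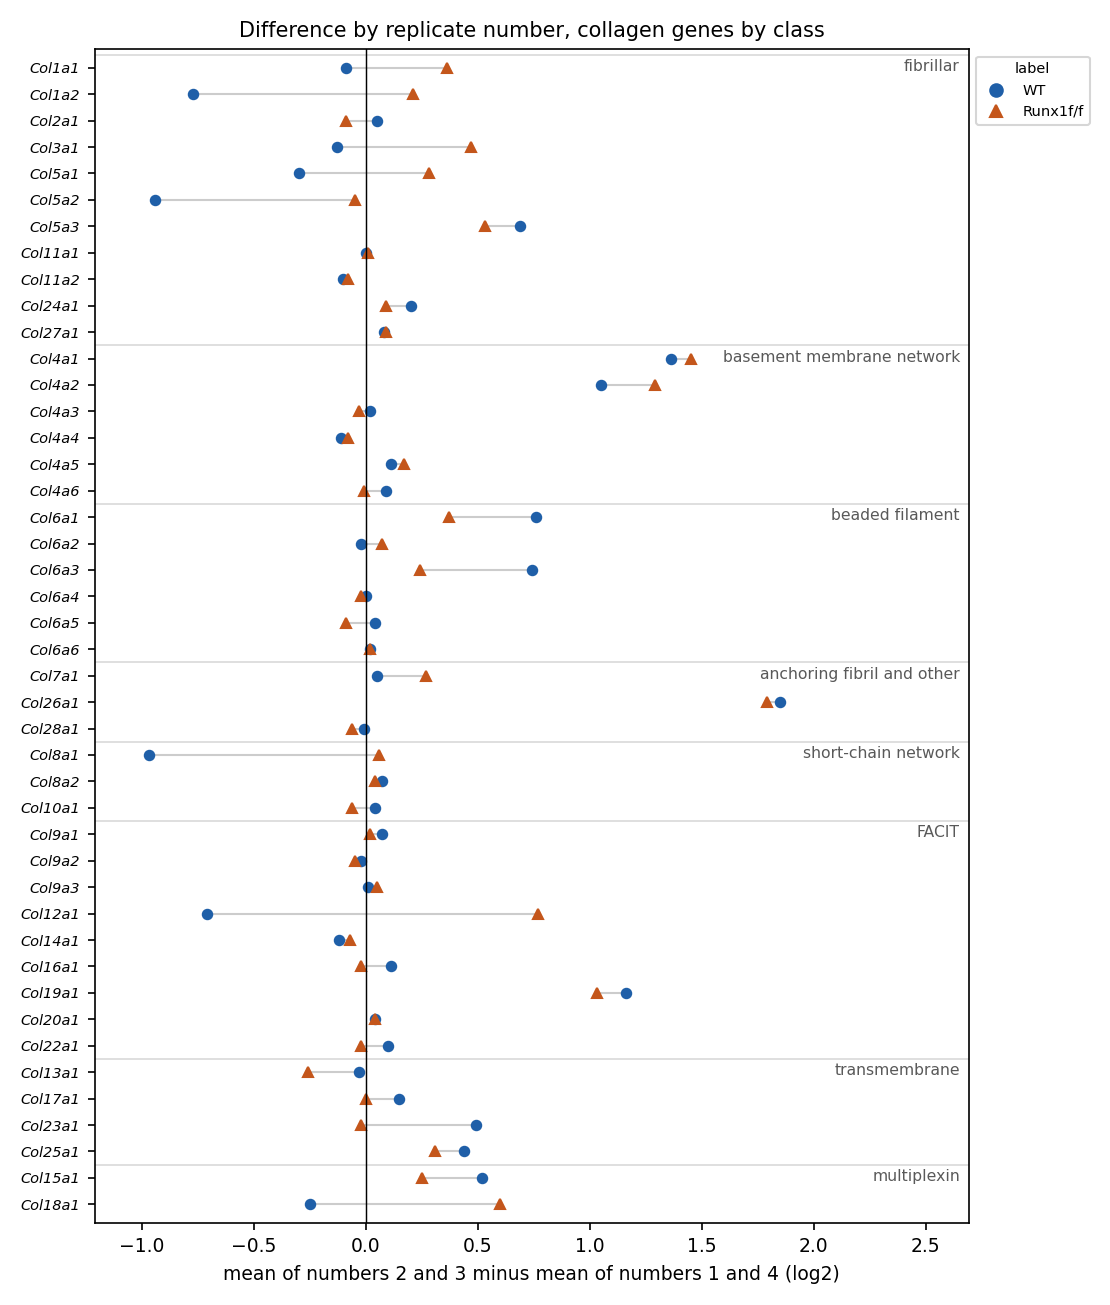
Mean of numbers 2 and 3 minus mean of numbers 1 and 4 (log2, horizontal axis) for the 44 collagen genes, grouped by class, with a circle for the 2 against 2 WT arrays and a triangle for the 2 against 2 Runx1f/f arrays. Col4a1, Col4a2, Col19a1 and Col26a1 stand between 1.03 and 1.85 in both labels, while Col1a2, Col5a1, Col12a1 and Col18a1 lie on opposite sides of 0.

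Of 11 fibrillar members 0 passed the minimum gap in either direction, which is near the share of all genes. With no minimum gap 2 were higher, Col5a3 and Col24a1, and 0 lower, and their median difference was 0.01. Col1a2, a chain of type I collagen, read 10.39, 9.13, 9.64 and 9.92 on WT arrays 1 to 4, then 9.76, 9.78, 9.98 and 9.56 on Runx1f/f arrays 1 to 4. Col1a1, the other chain of the same trimer, read 4.79, 4.69, 4.46 and 4.53 on WT arrays 1 to 4, then 4.46, 4.77, 4.82 and 4.41 on Runx1f/f arrays 1 to 4. The 2 probe sets thus sat at 9.77 and 4.62 on average. Since levels of different probe sets are not strictly comparable, no ratio of the chains is drawn from them.

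Col3a1, the type III chain of reticular fibrils, read 9.05, 8.73, 8.94 and 8.89 on WT arrays 1 to 4, then 8.74, 9.06, 9.21 and 8.60 on Runx1f/f arrays 1 to 4, with overlapping sets and a difference of 0.17. Col5a2, a type V chain that helps start fibrils, had the highest SD of the class, 0.37 beside 0.36 in Col1a2. It read 9.06, 7.84, 8.07 and 8.72 on WT arrays 1 to 4, then 8.42, 8.43, 8.37 and 8.48 on Runx1f/f arrays 1 to 4. Its difference of -0.49, the lowest of the 44 members, came from the WT arrays, where it was -0.94, against -0.05 in Runx1f/f arrays. Col8a1, a short-chain collagen of vessel walls and the cornea, followed the same pattern. It read 7.36, 6.32, 6.26 and 7.16 on WT arrays 1 to 4, then 6.91, 6.64, 6.97 and 6.57 on Runx1f/f arrays 1 to 4, that is -0.97 for WT and 0.06 for Runx1f/f arrays. The other short-chain genes, Col8a2 and Col10a1, differed by 0.06 and -0.01, and the anchoring fibril gene Col7a1 and Col28a1 by 0.16 and -0.04, all with overlapping arrays.

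Col5a3, another type V chain, went the other way from Col5a2. It read 4.69, 5.30, 5.42 and 4.66 on WT arrays 1 to 4, then 4.82, 5.21, 5.35 and 4.68 on Runx1f/f arrays 1 to 4. All arrays numbered 2 and 3 were above the others, by 0.61 on average and with a gap of 0.39, which makes it the member nearest below the minimum. Col24a1 parted by a gap of 0.01 at a mean of 3.86. Col5a3, Col24a1 and Col14a1 were singled out after their values were seen. Col2a1, Col11a1, Col11a2 and Col27a1, known mainly from cartilage, had means of 4.10, 3.80, 3.77 and 4.21 and differences between -0.09 and 0.09.

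In 4 members the arrays numbered 2 and 3 were below those numbered 1 and 4 in WT and above them in Runx1f/f, without overlap within either label. These were Col1a2, Col5a1, Col12a1 and Col18a1, or 9.09% of the members, beside 3.5% of all genes. Col12a1 read 6.11, 5.09, 5.27 and 5.68 on WT arrays 1 to 4, then 5.24, 5.83, 6.01 and 5.06 on Runx1f/f arrays 1 to 4. Its difference was -0.71 for WT and 0.77 for Runx1f/f arrays, so the average over both labels, 0.03, hides the pattern. Col18a1 read 8.68, 8.33, 8.35 and 8.50 on WT arrays 1 to 4, then 8.08, 8.85, 8.67 and 8.25 on Runx1f/f arrays 1 to 4, with differences of -0.25 and 0.60. Col5a1, the main type V chain, read 5.45, 5.18, 5.21 and 5.54 on WT arrays 1 to 4, then 5.30, 5.39, 5.58 and 5.11 on Runx1f/f arrays 1 to 4, with differences of -0.30 and 0.28. The reverse order held in Col16a1 and Col23a1, 4.55% of the members beside 4.8% of all genes, though their gap in Runx1f/f arrays was only -0.01 each.

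**Figure D3:**
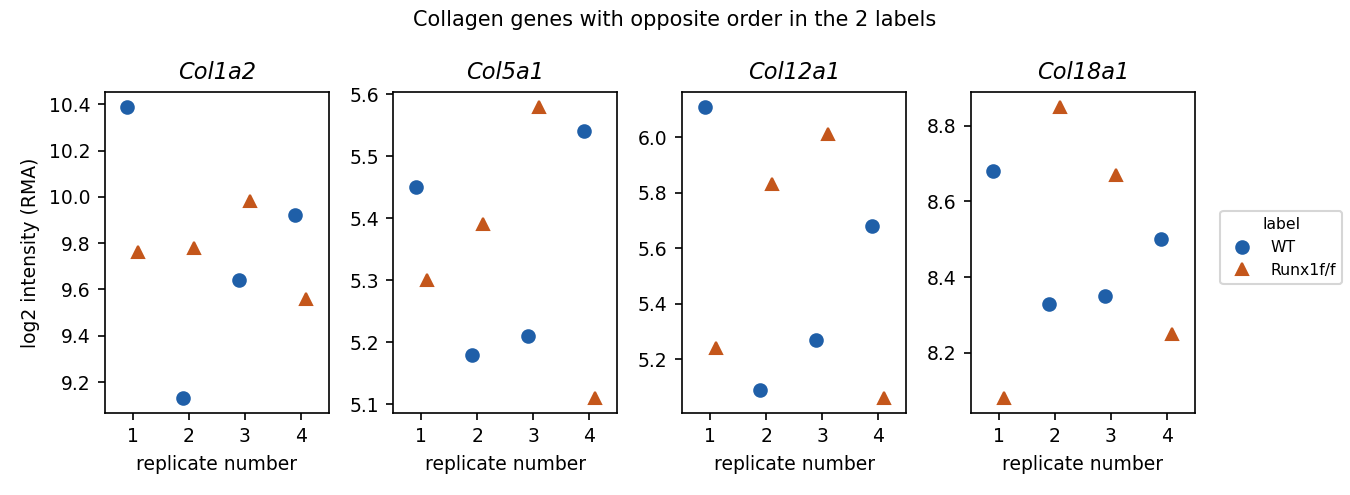
Log2 intensity (vertical axes, each panel on its own scale) of Col1a2, Col5a1, Col12a1 and Col18a1 against replicate number, with 1 point per array, circles for WT and triangles for Runx1f/f. Arrays WT 1 and WT 4 lie above WT 2 and WT 3, and Runx1f/f 2 and 3 lie above Runx1f/f 1 and 4; for Col1a2 the latter separation is narrow.

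Of the 44 members, 26 were not above the median gene, among them 7 of 9 FACIT genes and 4 of 6 type IV chains. No detection values were used, so it is not known which of these were expressed. Of the 18 members above it, 4 were higher with the minimum gap and 0 lower, beside 1.88% and 0.381% of the 9969 genes above the median gene. Their median absolute difference was 0.413. The corresponding median over those genes was 0.114. Over the 8 arrays Col26a1, Col4a1, Col4a2 and Col19a1 had SDs of 0.98, 0.78, 0.66 and 0.59, where the median gene had 0.084. The least variable member, Col11a1, had 0.01.

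**Figure D4:**
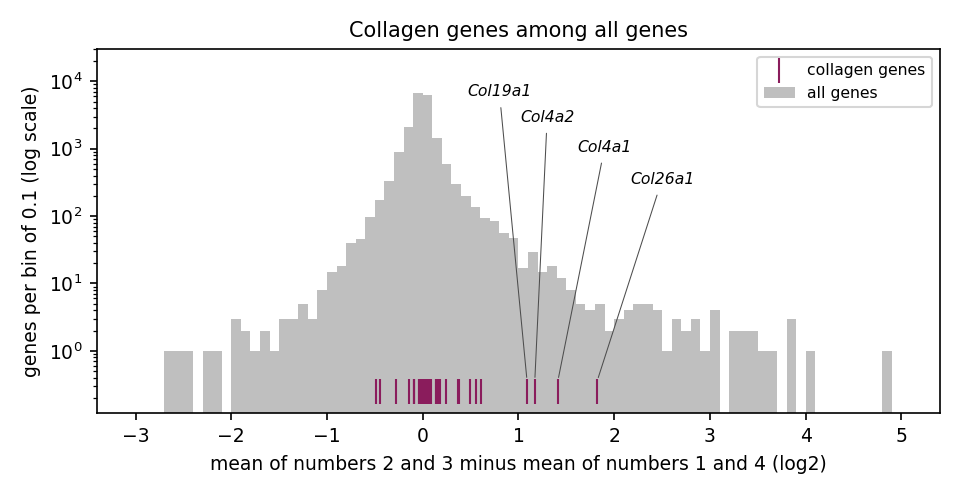
Number of genes (vertical axis, log scale) by the difference between the means of numbers 2 and 3 and of numbers 1 and 4 (log2, horizontal axis, bins of 0.1) for all 19938 genes, with a tick for each of the 44 collagen genes. The ticks gather near 0, from -0.49 in Col5a2 to 0.61 in Col5a3, apart from Col19a1, Col4a2, Col4a1 and Col26a1 at 1.09 to 1.82.

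The genes that modify, process, cross-link and bind collagen were taken from a list of 57, of which 54 were measured. None passed the minimum gap (0 higher and 0 lower), beside the 0.943% and 0.196% of all genes given above, and limma called 0 between the labels as for every gene. With no minimum gap 2 were higher in numbers 2 and 3 (3.7%) and 10 lower (18.5%), beside 9.87% and 10.5% of all genes. Their median difference was -0.04. The count with the minimum gap is near the share of all genes and is no result about the list. The pair higher with no minimum gap were Tmem38b and Matn2, a matrilin, which differed by 0.40 with a gap of 0.23.

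In the endoplasmic reticulum, chains are hydroxylated, glycosylated and folded. Of 19 such genes 1 was higher and 5 lower without overlap. Tmem38b, a cation channel of the endoplasmic reticulum, had the highest SD over the 8 arrays, 0.39. It read 8.78, 9.59, 9.58 and 8.66 on WT arrays 1 to 4, then 8.78, 9.53, 9.25 and 9.05 on Runx1f/f arrays 1 to 4, a difference of 0.67 with a gap of 0.20. The lower genes were the prolyl hydroxylase subunits P4ha2 and P4ha3, the lysyl hydroxylase Plod1, the prolyl isomerase Fkbp14 and the collagen galactosyltransferase Colgalt1, with Fkbp14 the lowest at -0.52. Their gaps were -0.02 to -0.12.

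Among procollagen proteases and their enhancers, Adamts14, an N-propeptidase, read 7.61, 7.26, 7.28 and 7.84 on WT arrays 1 to 4, then 7.74, 7.25, 7.05 and 7.95 on Runx1f/f arrays 1 to 4. Numbers 2 and 3 were lower by 0.58 on average (difference -0.58), with a gap of -0.33. Of the lysyl oxidases that cross-link collagen, Loxl1 read 6.44, 6.32, 6.66 and 6.12 on WT arrays 1 to 4, then 5.70, 7.07, 6.68 and 6.09 on Runx1f/f arrays 1 to 4. Loxl1 differed by 0.59, with WT arrays overlapping, whereas Loxl3 differed by -0.70 with a gap of -0.23. Among receptors, the endocytic collagen receptor Mrc2 had the highest SD, at 5.11, 4.73, 4.98 and 4.79 on WT arrays 1 to 4, then 4.95, 4.85, 5.52 and 4.28 on Runx1f/f arrays 1 to 4. Mrc2 differed by 0.24 over both labels but by -0.24 within the first run. Of 10 receptor and uptake genes 0 were higher and 2 lower without overlap, beside 9.87% and 10.5% of all genes. The lower ones were Adgrg1, with a difference of -0.48 and a gap of -0.32, and Itga10, with -0.15 and -0.02.

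Bgn, which encodes the collagen-binding proteoglycan biglycan, had the highest SD of the list, 1.07. On WT arrays it ranged from 7.64 in number 4 to 8.80 in number 3, and on Runx1f/f arrays 1 to 4 it read 6.84, 9.66, 9.51 and 6.99. The Runx1f/f arrays parted by number, with a difference of 2.67, while the WT arrays overlapped, with 0.29. The pattern seen in Col12a1, below in WT and above in Runx1f/f arrays, was shared by 8 of the 54 genes (14.8%), beside 3.5% of all genes. They were Plod2, P3h4, Lox, Itgb1, Ddr1, Fn1, Nid1 and Nid2. Fn1, fibronectin, differed by -0.96 for WT and 0.50 for Runx1f/f arrays, and the nidogens Nid1 and Nid2, which bind type IV collagen, did not part with Col4a1 and Col4a2.

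**Figure D5:**
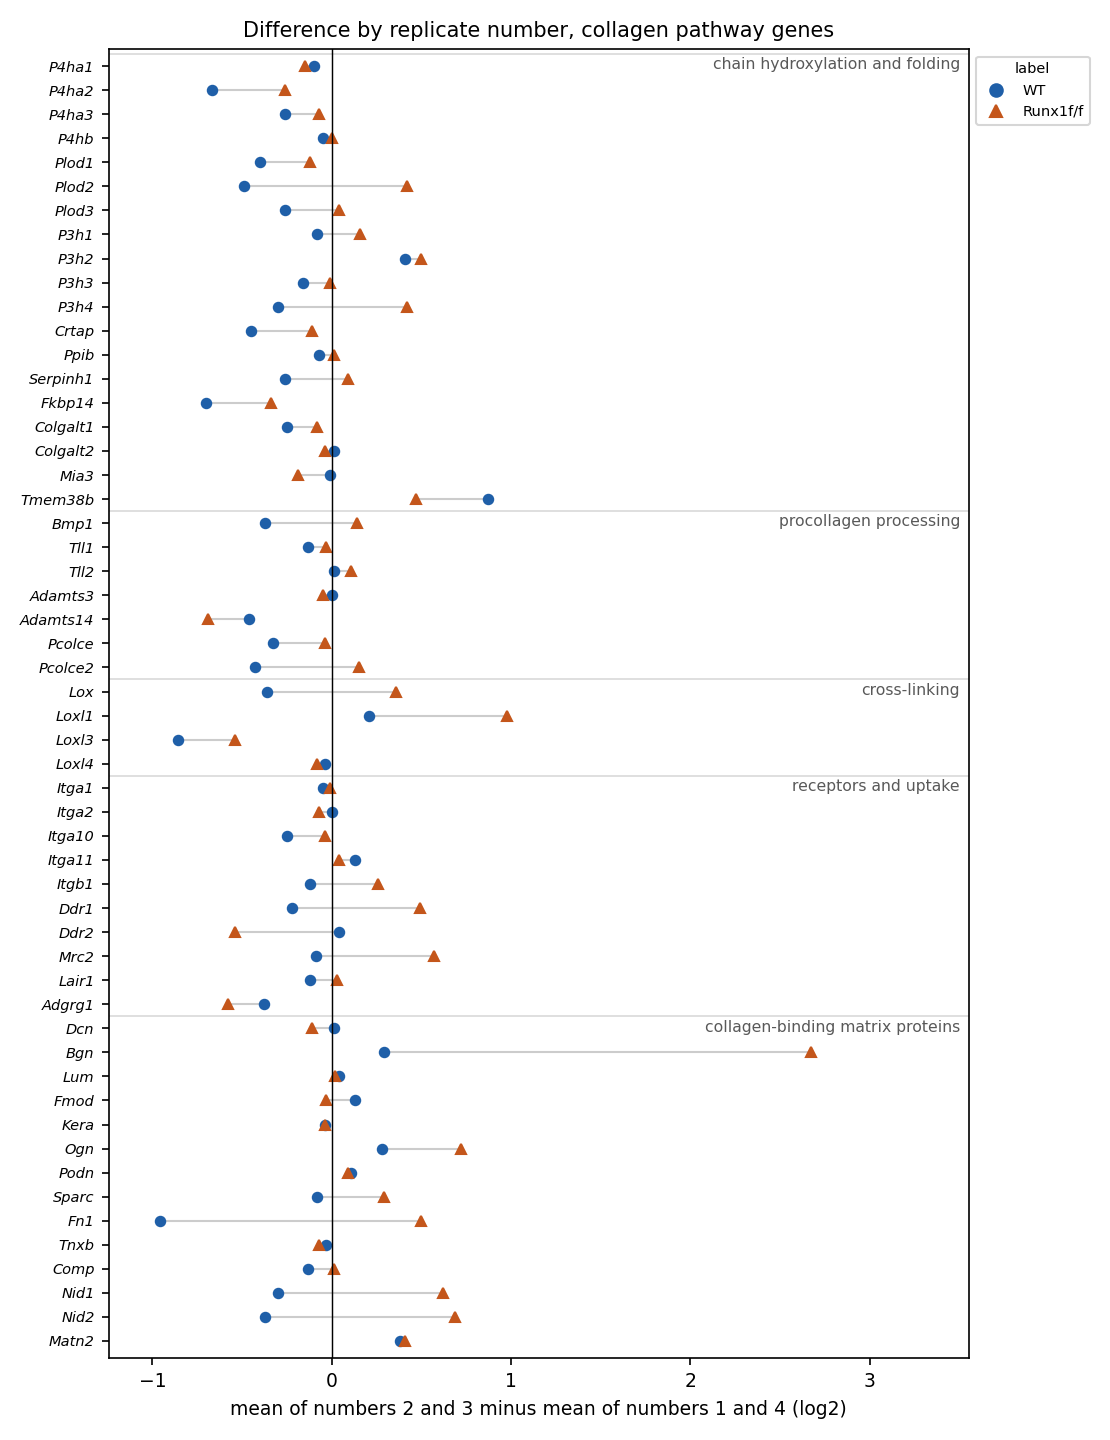
Mean of numbers 2 and 3 minus mean of numbers 1 and 4 (log2, horizontal axis) for the 54 measured genes of collagen modification, processing, cross-linking, binding and uptake, grouped by role, with a circle for WT and a triangle for Runx1f/f arrays. Bgn stands apart at 2.67 in Runx1f/f and 0.29 in WT arrays, and Loxl3 and Adamts14 lie below 0 in both labels.

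Markers of other cells that make collagen were read on the same arrays. In such bulk samples, fewer cells of a type and less RNA per cell cannot be told apart. Of 13 fibroblast and fibro-adipogenic markers, 12 were not above the median gene, among them Pdgfra, Dcn, Lum and Dpt with means of 3.49, 3.50, 3.57 and 3.23. The exception was Fbln1, with a mean of 7.17. Marker counts use no minimum gap, where 9.87% of all genes were higher and 10.5% lower. In this list 3 were higher (Pdgfrb, Cd34 and Pi16) and 1 lower (Fbln1) in numbers 2 and 3 without overlap, and its mean was 3.88 to 3.93 in numbers 2 and 3 and 3.82 to 3.87 in numbers 1 and 4. Pdgfrb differed by 0.59, with a gap of 0.31, at a mean of 3.79. Of 8 pericyte and smooth muscle markers 2 were higher, Cspg4 by 0.72 and Abcc9 by 0.68, and the list's mean was 5.82 to 6.18 against 5.72 to 6.11. Of these 8, 5 were above the median gene: Acta2 at 11.70, Rgs5 at 8.51, Tagln at 6.33, Abcc9 at 5.86 and Cspg4 at 4.66. Rgs5 and Tagln differed by -0.49 and -0.45 with overlapping arrays, and Myh11, Cnn1 and Kcnj8 had means of 3.47, 3.57 and 3.52.

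Of 8 endothelial markers all 8 were not above the median gene, with 1 higher and 3 lower beside the same 9.87% and 10.5% of all genes, and Cdh5 and Pecam1 had means of 3.51 and 3.64. The mean of the endothelial list was 3.53 to 3.57 against 3.57 to 3.61. For 4 Schwann cell markers it was 3.73 to 3.86 against 3.71 to 3.81, with 0 higher and 0 lower, and for 8 leukocyte markers 3.62 to 3.68 against 3.60 to 3.64, with 2 higher and 1 lower. Of 7 chondrocyte and osteoblast markers Acan was higher, by 0.09 at a mean of 3.37, and Sp7, an osteoblast transcription factor, was lower by 2.61 on average (difference -2.61). Sox9 and Sp7 were above the median gene, with means of 6.90 and 5.57, and Sox9 differed by 0.01 with overlapping arrays. The mean of the list was 3.86 to 4.05 against 4.27 to 4.42, a separation that Sp7 carries. The other members differed by -0.08 to 0.09. Sp7 differed by -3.95 for WT and -1.28 for Runx1f/f arrays. Of the 9 myoblast markers 3 were higher: Myog, which drives differentiation, at 0.76, Cdh15 at 0.25 and Des at 0.18. Another 3 were lower: Myf5, which marks proliferating myoblasts, at -0.89, Myod1 at -0.26 and Chrna1 at -0.14. The list's mean was 10.16 to 10.22 against 10.17 to 10.23. The part of any of these in the collagen values was not tested.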

How the data were processed

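RNA of 8 samples was read on single-colour Affymetrix arrays. The deposited values are log2 intensities per probe set, and RMA and Partek are named without versions in the submitters' processing notes. Columns were matched to samples by the deposited sample name, and the doubt about this is stated with the results. Members and gene lists, and the setting of numbers 2 and 3 against 1 and 4, were chosen with earlier results of these data known. Of 35399 rows, 21789 carry a single symbol in the platform annotation, which gave 19938 genes. All 44 collagen genes matched a RefSeq gene by identifier, with 0 symbols changed. The labelled genotypes were tested in R 4.3.3 by limma 3.58.1 (eBayes after lmFit, two-sided, Benjamini-Hochberg over all genes, threshold 0.05). The code was tested on simulated independent arrays, which lack the equal means of the deposited columns. That simulation therefore does not bear on the labelled comparison here. Differences by number were computed without a test in Python 3.11.15, from means of 4 arrays on the log2 scale, and no filter on dim genes was applied. Named were members passing the minimum gap of 0.5, 12 main chains (of types I, III, IV, V, VI, XV and XVIII), the most variable member of each class or role, and Runx1. Others were named to account for every member. No 2 arrays held identical values (0 pairs). Deviations of same-numbered arrays correlated by 0.39, 0.46, 0.60 and 0.57, and a replicate block was run as an alternative. Correlations between arrays of different numbers were not computed, and numbers 2 and 3 parted from 1 and 4 in both labels. The correlations of same-numbered arrays therefore cannot show a pairing by number, and the labels do not give one. The number of arrays limits the precision. The labels do not say whether replicates came from separate animals.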

Additional observations from a re-analysis of the deposited data

Results flagged for a closer look

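In 6 collagen genes, by the labels as they stand on the columns, the arrays numbered 2 and 3 lay on one side of those numbered 1 and 4 in WT and on the other side in Runx1f/f, and the difference between the labels was not tested. Col1a2, a type I chain, differed by -0.77 in WT and 0.21 in Runx1f/f arrays, Col5a1, a type V chain, by -0.30 and 0.28, the FACIT collagen Col12a1 by -0.71 and 0.77, and the multiplexin Col18a1 by -0.25 and 0.60. These 4 are 9.09% of the members, beside 3.5% of all genes. In the reverse order Col16a1 differed by 0.11 and -0.02 and the transmembrane collagen Col23a1 by 0.49 and -0.02, which is 4.55% of the members beside 4.8% of all genes. In Runx1f/f arrays the gap between the nearest arrays was only -0.01 in Col16a1, -0.01 in Col23a1 and 0.02 in Col1a2.

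Of 50 groups of 4 WT arrays, 3 had an array far from the others, where chance marks about 5% of groups; Runx1f/f values are mirrored and cannot be marked. Col7a1, the anchoring fibril collagen, read 4.25 in WT 4 against 4.36 in the nearest WT array. Col20a1 read 3.47 in WT 2 against 3.40, and Col22a1 3.83 in WT 2 against 3.66. All 3 genes had means below the median gene.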

How the results depend on the processing

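Between the labelled genotypes 0 collagen genes were called under each setting run: with a replicate block, a block for the runs of source numbers, the first run alone, both rescalings, the dim filter, all probe sets, rows with several symbols (0 such collagen rows) and each array left out (0 to 0). No paired analysis could add to this, since the replicate block gives the same equal means (0 calls). With 1 array left out the largest difference was 0.2692 to 0.3482, in Col26a1, which the construction of the columns gives. For numbers 2 and 3 against 1 and 4, the counts of 4 collagen genes higher and 0 lower became 10 and 1 with no minimum gap and 1 higher with a minimum gap of 1, Col26a1. Leaving out each array gave 4 to 5 higher, with Col5a3 added without Runx1f/f 1 (gap 0.526), and 0 to 0 lower. The pathway counts of 0 and 0 became 2 higher and 10 lower with no minimum gap, and 1 and 1 within the run 139 to 142 as labelled; leaving out each array gave 0 to 0. The causes were not tested. Of 279 values of 22 named genes under alternatives, 277 moved by less than the spread between arrays. The exceptions lay within that run: Adamts14 at -0.42 in place of -0.58, and Mrc2, whose arrays overlapped, at -0.24 in place of 0.24. Leaving out 1 of 4 arrays cannot move a mean by more than this spread. The dim filter and the rows with several symbols leave the value of a kept gene unchanged. These settings therefore could not have counted as moved, and their share of the 277 is no sign of stability. Signal over background was not available as a limit here, since detection values were not analysed.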
